A study of Homo sapiens with 24 samples.

Results

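The 5 genes described here are the tissue inhibitors of metalloproteinases TIMP1, TIMP2, TIMP3 and TIMP4, together with RECK, chosen by name from the 21386 genes in the count tables. RNA was sequenced from 24 libraries of A375 cells, a human melanoma line, and A549 cells, a human lung adenocarcinoma line. In each line, shMCM7 cells, transduced with a lentiviral pRSIT17 vector that expresses a short hairpin RNA against MCM7 after addition of doxycycline (Dox), were compared with untransduced parental cells. All cells were arrested by double thymidine block and kept for 72 hours with 1 µg/ml Dox or without it (noDox), with 3 biological replicates for each of the 4 groups of a line. MCM7 is a subunit of the replicative helicase that is loaded onto DNA as part of the pre-replication complex, and the study asked which genes change when this complex is depleted in invasive cancer cells. The libraries of parental cells with Dox carry no hairpin vector, so they control for Dox but not for transduction or for the expression of a hairpin.

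TIMPs are small secreted proteins that bind the active site of matrix metalloproteinases (MMPs) with their N-terminal domain and block cleavage of the extracellular matrix. They differ in reach: TIMP2 inhibits MMP14 and, at low amounts, also bridges MMP14 and the precursor of MMP2 on the cell surface. TIMP3 binds the matrix and inhibits ADAM17 and aggrecanases of the ADAMTS family, and TIMP1 inhibits MMP14 poorly. RECK is an unrelated membrane protein with a glycosylphosphatidylinositol anchor that restrains MMP9, MMP2 and MMP14 and serves as a receptor for WNT7A and WNT7B.

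In the annotation (GENCODE release 29, GRCh38), TIMP1 (ENSG00000102265) lies at chrX:47582313-47586789 on the plus strand, TIMP2 (ENSG00000035862) at chr17:78852977-78925387 on the minus strand, TIMP3 (ENSG00000100234) at chr22:32801701-32863043 on the plus strand, TIMP4 (ENSG00000157150) at chr3:12153051-12159351 on the minus strand and RECK (ENSG00000122707) at chr9:36036433-36124451 on the plus strand. TIMP1, TIMP3 and TIMP4 each lie within a gene for a synapsin on the opposite strand (SYN1, SYN3 and SYN2), and CEP295NL lies within TIMP2 on the same strand. The hairpin sequence, shown because the comparisons of shMCM7 cells depend on what it matches, was found whole in the transcripts of 1 of 21320 genes, MCM7 (5 of 13 transcripts). Its likely seed match, CTACGAA, was in none of the transcripts of the 5 genes, against 6.02% of all genes.
shRNA target: cagaggaggatttctacgaaa

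Promoters of 4 of the 5 genes were taken from RefSeq (GRCh38.p14), in a set that held no entry for TIMP2. They are shown because RECK and TIMP1 differed in opposite directions in A375 cells, and TIMP3 and TIMP4 differed most between the lines. Each runs from 250 bases before to 50 after the annotated start, on the strand of the gene. Capitals mark GC boxes (GGGCGG on either strand), the motif of SP1-like factors. The AP-1 motif TGANTCA was also searched on both strands; the motifs do not overlap.
TIMP1 (chrX:47582186-47582485, plus strand): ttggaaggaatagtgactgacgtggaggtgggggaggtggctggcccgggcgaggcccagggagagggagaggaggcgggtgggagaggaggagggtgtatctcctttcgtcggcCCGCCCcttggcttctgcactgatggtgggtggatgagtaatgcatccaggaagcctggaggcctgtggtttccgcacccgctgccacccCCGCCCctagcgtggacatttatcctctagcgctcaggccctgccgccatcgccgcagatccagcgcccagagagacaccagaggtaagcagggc
TIMP3 (chr22:32801455-32801754, plus strand): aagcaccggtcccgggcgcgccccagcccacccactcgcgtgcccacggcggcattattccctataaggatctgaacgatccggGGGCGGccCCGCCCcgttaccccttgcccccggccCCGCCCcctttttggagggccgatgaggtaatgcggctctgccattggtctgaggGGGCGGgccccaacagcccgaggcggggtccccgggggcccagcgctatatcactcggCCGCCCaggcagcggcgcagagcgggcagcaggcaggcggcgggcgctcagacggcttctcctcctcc
TIMP4 (chr3:12158863-12159162, minus strand): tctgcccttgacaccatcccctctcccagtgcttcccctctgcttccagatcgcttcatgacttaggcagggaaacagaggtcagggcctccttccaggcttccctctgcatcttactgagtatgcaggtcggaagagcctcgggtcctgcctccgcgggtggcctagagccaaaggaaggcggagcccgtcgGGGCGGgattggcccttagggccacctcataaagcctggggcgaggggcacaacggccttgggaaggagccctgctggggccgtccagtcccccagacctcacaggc
RECK (chr9:36036663-36036962, plus strand): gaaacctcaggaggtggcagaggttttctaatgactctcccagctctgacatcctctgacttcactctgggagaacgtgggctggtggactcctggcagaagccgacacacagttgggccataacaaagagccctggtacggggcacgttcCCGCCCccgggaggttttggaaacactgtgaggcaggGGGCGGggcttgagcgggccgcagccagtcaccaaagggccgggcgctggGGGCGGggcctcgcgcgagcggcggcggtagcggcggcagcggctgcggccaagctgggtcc

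The TIMP3 window held 5 GC boxes, RECK 3, TIMP1 2 and TIMP4 1, where 45% of 35116 promoters of the same length held at least 1. The exact letters TGANTCA were found in none of the 4 windows, against 7.71% of all promoters. AP-1 sites that differ from these letters were not searched. CpG pairs numbered 31 in TIMP3, 22 in RECK, 16 in TIMP1 and 12 in TIMP4, with a median of 14 over all promoters.

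MCM7 itself checks the labels. Levels are given as CPM, counts normalized to library size with TMM scaling within each line. In A375 shMCM7 cells with Dox, MCM7 lay at 76.4, 76.8 and 77.2 CPM, and in the noDox libraries at 131, 353 and 359 CPM, so that the library labelled noDox replicate 1 was already low. The log2 fold change of MCM7 was -1.87 (SE 0.30, adjusted p = 0.0012, edgeR). Parental A375 libraries lay between 342 and 370 CPM. In A549 cells the counts of MCM7 did not follow the labels. MCM7 was at 88.6 to 99.7 CPM in the libraries labelled shMCM7 Dox replicate 3, shMCM7 noDox replicate 2 and parental noDox replicate 2, and between 299 and 339 CPM in the other 9. Of the low libraries only shMCM7 Dox replicate 3 has a label under which low MCM7 is looked for. The libraries labelled shMCM7 Dox replicates 1 and 2 were at 299 and 333 CPM. The labels were kept, and A549 values are given for each library beside its MCM7 level.

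Total counts were 146656792 to 283721575 per library in A375 and 17911338 to 23452823 in A549, so 3 counts correspond to 0.0105 to 0.0208 CPM in A375 and 0.128 to 0.165 CPM in A549. Summed over 6 melanoma markers, A375 libraries held 581 to 747 CPM, although MLANA and TYR had at most 3 counts, and A549 libraries 36.9 to 53.1 CPM. Summed over 5 epithelial markers, A549 libraries held 3669 to 5307 CPM, but of 5 alveolar markers SFTPA1, SFTPB, NKX2-1 and AQP5 had at most 3 counts in each of them. Less RNA per cell and fewer cells with the RNA cannot be told apart in such bulk samples.

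**Figure D1:**
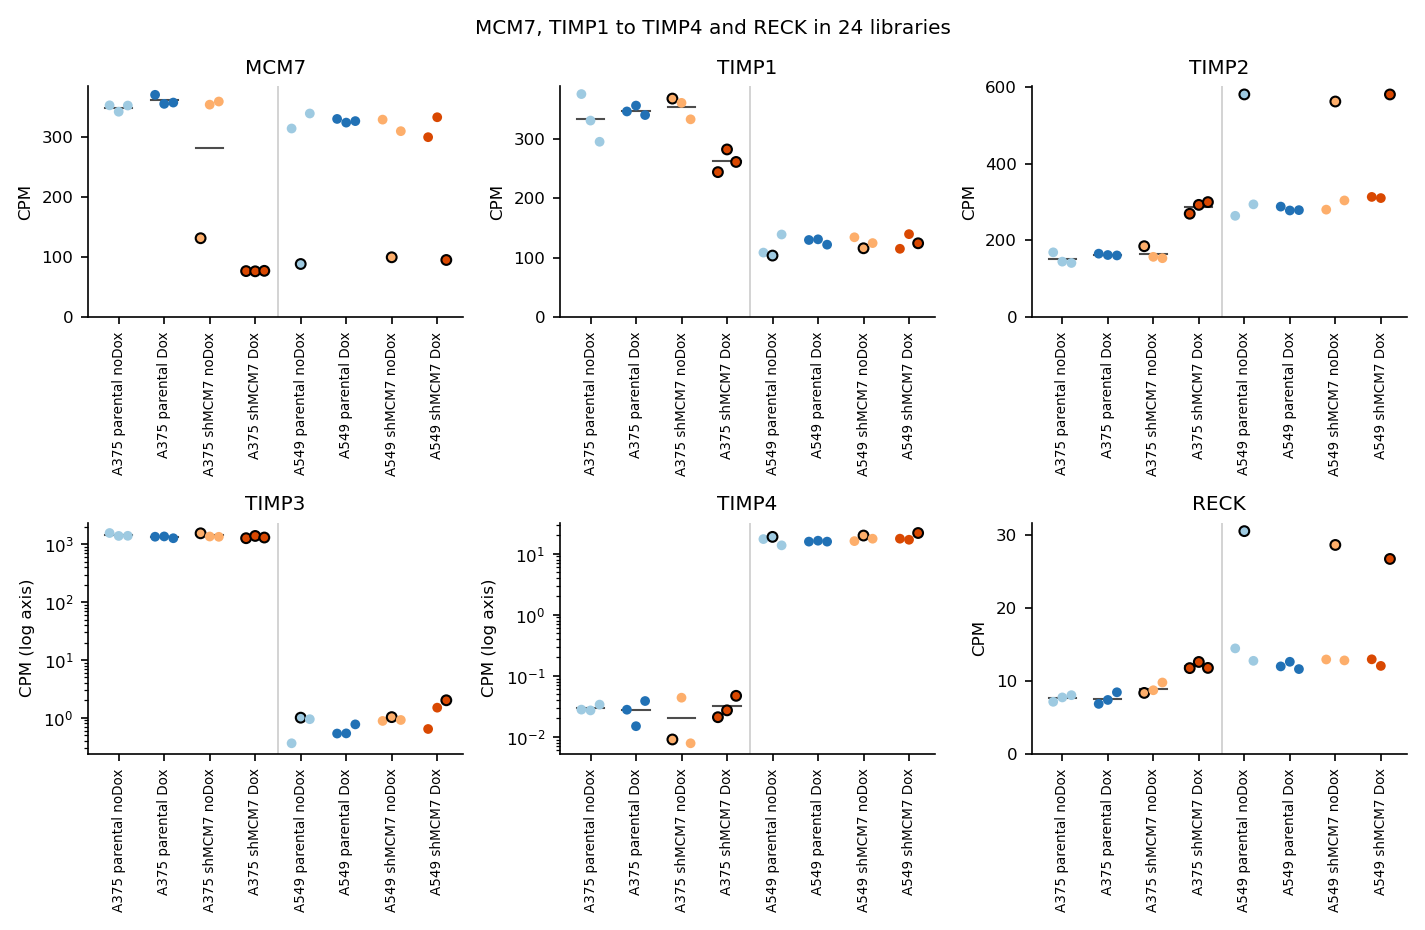
CPM of MCM7 and the 5 inhibitor genes in every library (1 point each, 3 per group; horizontal bars are the means of A375 groups; points outlined in black are libraries with MCM7 under 150 CPM; TIMP3 and TIMP4 on log axes). In A375, the shMCM7 Dox libraries stand above the others for TIMP2 and RECK and below them for TIMP1. In A549, the outlined libraries are at 561 to 580 CPM of TIMP2 and 26.7 to 30.5 CPM of RECK.

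The first comparison asked which of the 5 genes changed when the hairpin was induced in A375 cells. TIMP2 was up-regulated, RECK rose and TIMP1 fell by smaller amounts, and TIMP3, the member with the most counts, did not pass the test. TIMP2 was at 269, 293 and 300 CPM with Dox, and at 185, 157 and 154 CPM without it. The groups did not overlap, and the highest noDox value came from replicate 1, the noDox library with the least MCM7. The means were 287 ± 15.8 and 165 ± 17.1 CPM (SD, n = 3), a log2 fold change of 0.80 (SE 0.078, adjusted p = 9.6e-05, quasi-likelihood test of edgeR, adjusted over all genes after Benjamini and Hochberg). Without noDox replicate 1 the log2 fold change of TIMP2 was 0.88. In parental noDox cells replicate 1 also held the most TIMP2 of its group, at 169 CPM beside 352 CPM of MCM7. The parts of MCM7 and of the replicate in these values were not tested.

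RECK, the membrane-anchored inhibitor, was at 11.7, 12.6 and 11.8 CPM with Dox and at 8.35, 8.71 and 9.77 CPM without it. All 3 Dox libraries were higher than all noDox libraries, and the means were 12.04 ± 0.48 and 8.94 ± 0.74 CPM (SD, n = 3). The log2 fold change of RECK was 0.43 (SE 0.081, adjusted p = 0.0026 by the same edgeR test). The noDox library with the least MCM7, replicate 1, held the least RECK of its group, and without it the log2 fold change was 0.38.

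TIMP1, a broad inhibitor of secreted MMPs, moved the other way. It was at 244, 282 and 261 CPM with Dox, and at 367, 360 and 332 CPM without it. The groups did not overlap. The means were 262 ± 19.1 and 353 ± 18.4 CPM (SD, n = 3), a log2 fold change of -0.43 (SE 0.067, adjusted p = 0.0009 by edgeR). The noDox library with the least MCM7, replicate 1, held the most TIMP1 of its group, and without it the log2 fold change was -0.40.

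TIMP3, the matrix-bound inhibitor, was at 1283, 1403 and 1317 CPM with Dox and at 1559, 1372 and 1356 CPM without it. These values overlapped, and the highest was noDox replicate 1. The log2 fold change was -0.10 with a 95% interval from -0.26 to 0.06 (adjusted p = 0.27, edgeR). TIMP4 had 2 to 11 counts in each A375 library, under the floor of 3 counts in shMCM7 noDox replicates 1 and 3, and the filter on low counts removed it from every comparison within A375.

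Genes that changed at least 1.5-fold, with p under 0.01 and adjusted p under 0.05, were counted as called. By this rule TIMP2 was the only 1 of the 4 tested members called, where 12% of 16087 tested genes were called (5.58% higher, 6.45% lower). At an adjusted p under 0.05 alone, 3 of the 4 members passed, against 42.9% of all genes. The share of all genes whose Dox and noDox groups did not overlap was not counted.

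The opposite movement of TIMP2 and TIMP1 can be read within each library. The ratio of TIMP2 to TIMP1 CPM was 1.04 to 1.15 in the 3 A375 shMCM7 Dox libraries. In the other 9 A375 libraries it was 0.437 to 0.504, including noDox replicate 1.

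Parental cells show what Dox did without the hairpin. TIMP1 was at 345, 355 and 339 CPM with Dox and at 374.6, 330 and 295 CPM without it. TIMP2 was at 166, 162 and 161 CPM with Dox and at 169, 145 and 141 CPM without it. For both genes the groups overlapped. RECK overlapped too, at 6.84, 7.38 and 8.43 CPM with Dox against 7.13, 7.73 and 8.04 CPM. TIMP3 was at 1360, 1376 and 1281 CPM with Dox and at 1577, 1404 and 1412 CPM without it, and here the Dox libraries were all lower. Its log2 fold change was -0.13 (SE 0.058, unadjusted p = 0.042, adjusted p = 0.69 by edgeR). The log2 fold changes were 0.05 for TIMP1, 0.10 for TIMP2 and -0.02 for RECK. None of the 4 members was called in parental cells, where edgeR called 0% of 15993 genes, 1121 genes had an unadjusted p under 0.05 and DESeq2 called 3.

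Next, the effect of Dox in shMCM7 cells was set directly against that in parental A375 cells, as an interaction term over the 12 libraries. The effect on TIMP2 was larger in shMCM7 cells by 0.69 on the log2 scale (95% interval 0.46 to 0.93, adjusted p = 0.00044, edgeR). For RECK the difference was 0.44 (interval 0.18 to 0.71, adjusted p = 0.016), and for TIMP1 -0.49 (interval -0.72 to -0.25, adjusted p = 0.0045). For TIMP3 it was 0.03, with an interval from -0.17 to 0.23 (adjusted p = 0.84). TIMP2 was 1 of 4 members called in this test, which called 10.5% of 16334 genes. At an adjusted p under 0.05 alone, 3 of the 4 passed, against 30% of all genes.

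**Figure D2:**
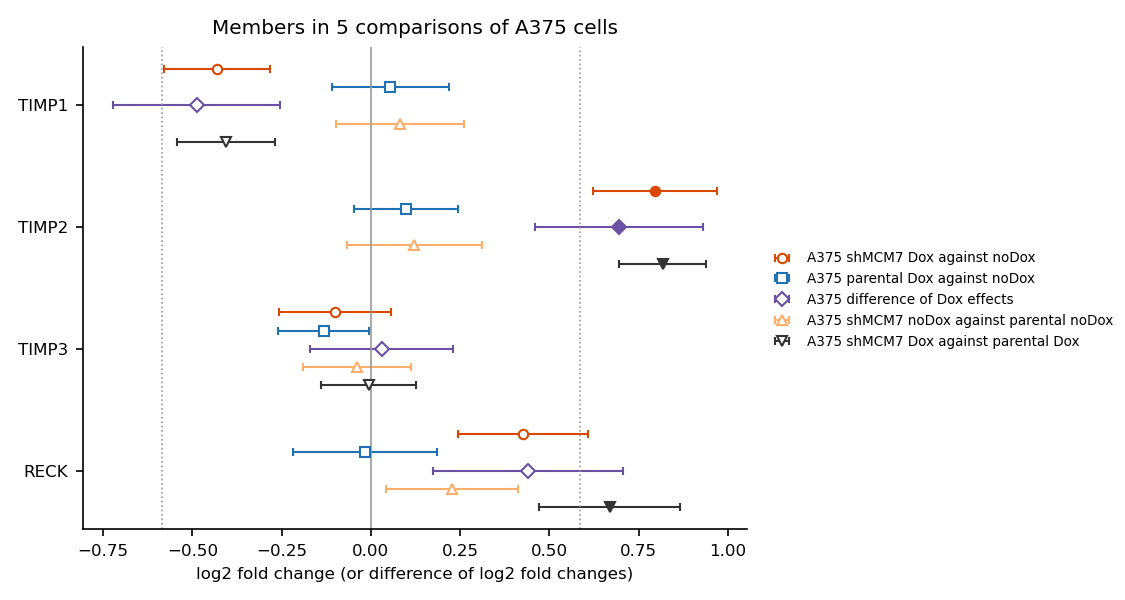
Log2 fold changes (x axis; for the difference of Dox effects, a difference of log2 fold changes) of TIMP1, TIMP2, TIMP3 and RECK in 5 comparisons of A375 cells, with 95% intervals from the edgeR fit of 3 libraries per group. Filled symbols are called, dotted lines mark a 1.5-fold change, and TIMP4 was not tested. The 3 estimates that involve shMCM7 cells with Dox lie between 0.69 and 0.82 for TIMP2 and between -0.49 and -0.41 for TIMP1, and those for TIMP3 in all 5 comparisons lie between -0.13 and 0.03.

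Between shMCM7 and parental A375 cells, both without Dox, none of the 4 members was called, where 1.65% of 16093 genes were. The log2 fold changes were 0.08 for TIMP1, 0.12 for TIMP2, -0.04 for TIMP3 and 0.23 for RECK (unadjusted p = 0.021, adjusted p = 0.21, edgeR). The shMCM7 libraries were at 8.35 to 9.77 CPM of RECK, above the 7.13 to 8.04 CPM of the parental libraries. Libraries of the same replicate number correlated here (r 0.531 to 0.548 after centring), but whether the numbers stand for paired samples was not established. With a block for the replicate number, edgeR's adjusted p was 0.017 for RECK at a log2 fold change of 0.22 and 0.029 for TIMP2 at 0.12. The number of called genes went from 266 to 484. The fold changes of RECK and TIMP2 stayed under 1.5.

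Between shMCM7 and parental A375 cells that both received Dox, TIMP2 was 0.82 higher (SE 0.054, adjusted p = 7.9e-06) and RECK 0.67 higher (SE 0.088, adjusted p = 0.0003) on the log2 scale in edgeR's test. TIMP1 was lower, at -0.41 (SE 0.061, adjusted p = 0.00063), and TIMP3 had a log2 fold change of -0.01 with a 95% interval from -0.14 to 0.13. The call thus covered 2 of 4 members, against 16% of 16086 genes. This comparison shares the shMCM7 Dox libraries with the first, so the values of both are not independent.

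In A549 cells, grouped by label, none of the 5 members was called for Dox in shMCM7 or in parental cells, nor was any other gene (0% of 13550 and 0% of 13494 by edgeR, with 61 and 1137 genes at an unadjusted p under 0.05, and 0 and 9 calls by DESeq2). In shMCM7 cells the log2 fold change of TIMP2 was 0.07 with a 95% interval from -0.74 to 0.88, and that of RECK -0.07 with an interval from -1.07 to 0.92. Libraries of the same label differed by more than these fold changes. Within shMCM7 Dox, TIMP2 was at 313, 310 and 580 CPM, and within shMCM7 noDox at 280, 561 and 304 CPM. The same spread was seen in parental noDox, at 264, 580 and 294 CPM, whereas parental Dox lay at 288, 278 and 279 CPM.

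Beside MCM7, the A549 values were as follows. The library labelled shMCM7 Dox replicate 3 had MCM7 at 95.3, TIMP2 at 580 and RECK at 26.7 CPM. The library labelled shMCM7 noDox replicate 2 had MCM7 at 99.7, TIMP2 at 561 and RECK at 28.6 CPM. The library labelled parental noDox replicate 2 had MCM7 at 88.6, TIMP2 at 580 and RECK at 30.5 CPM. In the 9 libraries with MCM7 over 250 CPM, TIMP2 lay between 264 and 313 CPM and RECK between 11.6 and 14.5 CPM, so the 3 libraries with little MCM7 held the highest values of both genes. TIMP4, best known from heart and brain, was at 21.8, 19.8 and 18.8 CPM in the 3 and between 13.7 and 17.6 CPM in the 9. TIMP1 was at 124, 116 and 104 CPM in the 3 and between 109 and 140 CPM in the 9, which overlapped. TIMP3 had 47, 20 and 20 counts in the 3 and 8 to 32 in the 9, and overlapped as well. The summed level of 5 fibroblast markers moved with these libraries, at 65.3, 64.7 and 56.7 CPM in the 3 and 10.7 to 21.8 CPM in the 9. Of these markers 1 averaged at least 1 CPM in A549 and COL1A2 and DCN had at most 3 counts in any library; their part in the values of TIMP2, RECK and TIMP4 was not tested. No group was formed from MCM7 values, so these are descriptions of single libraries and carry no mean or test. The share of all genes whose values in the 3 lay apart from those in the 9 was not counted.

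The lines differed in which inhibitors they expressed. Parental A375 cells, with and without Dox, were compared with parental A549 cells. TIMP3 had 196086 to 299469 counts in A375 parental Dox and 293707 to 396530 in parental noDox, and 8 to 20 counts in the parental A549 libraries. The log2 fold change was 10.89 (SE 0.14, adjusted p = 4.5e-16, edgeR). TIMP4 was the mirror image, at 13.7 to 18.8 CPM in parental A549 and 0.0149 to 0.0385 CPM in parental A375 libraries, which is 3 to 9 counts each. Its log2 fold change was -9.22 (SE 0.15, adjusted p = 3.9e-15, edgeR). TIMP1 was higher in A375 by 1.37 on the log2 scale (SE 0.079), whereas TIMP2 (-1.17, SE 0.17) and RECK (-1.12, SE 0.19) were lower.

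All 5 members were called between the lines, where 59.5% of 15986 genes were called and the median log2 fold change of all genes was 0.06. Without the library labelled A549 parental noDox replicate 2, the values were -0.91 for TIMP2 and -0.82 for RECK. A375 libraries were also sequenced far more deeply, and the line cannot be told apart from whatever differed between their sequencing.

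Divided by the length of the merged exons, the order of the levels in parental noDox A375 cells was TIMP3 (318 ± 21.3 CPM per kb), TIMP1 (216 ± 26.02), TIMP2 (26.9 ± 2.67), RECK (1.26 ± 0.076) and TIMP4 (0.0179 ± 0.0022; SD, n = 3). No neighbours in this order overlapped with this length. Divided by the longest transcript instead, TIMP1 (269 to 342 CPM per kb) and TIMP3 (305 to 343) overlapped in these libraries, and TIMP1 was above TIMP3 in 5 of the 12 A375 libraries, among them all 3 of parental Dox (310 to 324 against 278 to 299 CPM per kb). In A549 parental Dox cells it was TIMP1 (82.7 ± 3.17 CPM per kb), TIMP2 (49.99 ± 0.99), TIMP4 (9.66 ± 0.19), RECK (1.997 ± 0.084) and TIMP3 (0.133 ± 0.029; SD, n = 3). The order of TIMP1 and TIMP2 in A549 was not fixed. In the 3 libraries with little MCM7, TIMP2 was at 99.7 to 103 CPM per kb, above the 67.2 to 80.6 CPM per kb of TIMP1.

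Of the summed level per length of the 4 TIMPs, TIMP3 made up 52.8 to 58.7% in A375 libraries and 0.061 to 0.221% in A549 libraries. With the longest transcript its share in A375 was 44.0 to 49.9%, beside 38.7 to 49.1% for TIMP1, so that neither gene was the larger part throughout. TIMP2 made up 9.63 to 10.5% of this sum in A375 shMCM7 Dox cells and 4.72 to 5.42% in the other A375 libraries (12.5 to 13.5% and 6.14 to 6.99% with the longest transcript). The sum itself was 485 to 540 CPM per kb in A375 shMCM7 Dox cells and 523 to 616 in the other A375 libraries, and these ranges overlapped.

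**Figure D3:**
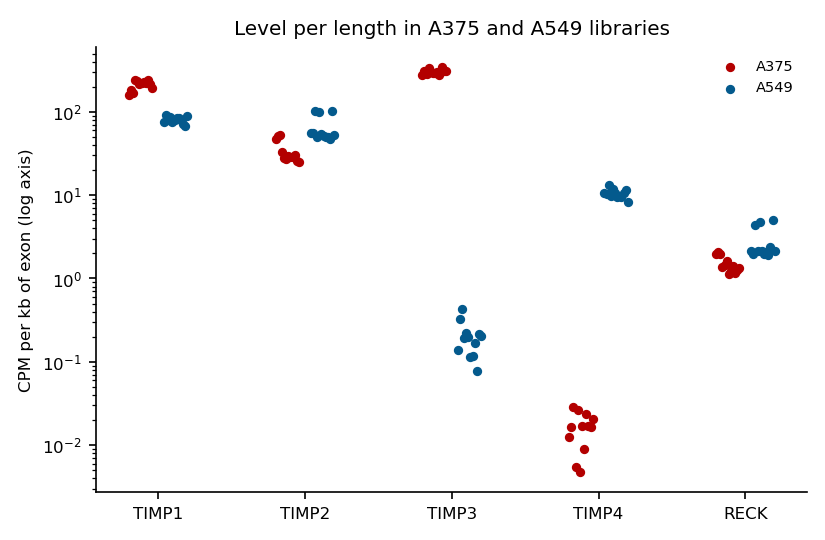
Level per length (CPM per kb of merged exon, log axis) of TIMP1 to TIMP4 and RECK in the 12 A375 and 12 A549 libraries, 1 point per library in all conditions. With this length TIMP3 is the highest of the 5 in A375, an order that changes in 5 of the 12 libraries with the longest transcript; TIMP3 is the lowest in A549 and TIMP4 the lowest in A375.

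Genes that overlap the members were examined because the strand setting of the counting is not given in the sources used here. CEP295NL lies wholly within the span of TIMP2 on the same strand and shares 198 exon bases with TIMP2. It was at 20.6 ± 2.11 CPM in A375 shMCM7 Dox and 10.9 ± 1.31 CPM in noDox cells (SD, n = 3), a called log2 fold change of 0.92 beside the 0.80 of TIMP2. Between the parental lines it differed by -1.12, beside the -1.17 of TIMP2. How reads in the shared stretch, or in the TIMP2 introns that hold the rest of the CEP295NL exons, were assigned was not tested.

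SYN1, opposite TIMP1, was at 0.315 ± 0.0084 CPM in A375 shMCM7 Dox and 0.609 ± 0.064 CPM in noDox cells (SD, n = 3), a called log2 fold change of -0.95, in the direction of TIMP1. SYN3, opposite TIMP3, was at 1.78 to 2.26 CPM in A375 libraries and had at most 1 count in A549 libraries, the same order of the lines as TIMP3. SYN2 shares 170 exon bases with TIMP4 on the other strand but was at 0.349 to 0.601 CPM in A375 and 0.256 to 0.614 CPM in A549 libraries, so it did not follow the line difference of TIMP4. Per length, each of the 3 synapsin genes was less abundant than the member it overlaps in the line with more of that member.

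The proteases that these inhibitors restrain moved in both directions in A375 shMCM7 cells. Of 32 metalloproteinase genes listed, 28 were tested, 3 were called higher with Dox and 4 lower, where 5.58% of all genes were called higher and 6.45% lower. The median log2 fold change was 0.05, against 0.00 over all genes. MMP3, a stromelysin, was at 6.45 ± 1.75 CPM with Dox and 1.56 ± 0.41 CPM without it (SD, n = 3). Its log2 fold change was 2.04 (adjusted p = 0.00019, edgeR). MMP3 was also called higher in shMCM7 than in parental cells without Dox (1.11, adjusted p = 0.019, edgeR). ADAM12 was at 20.4 ± 1.29 and 13.1 ± 1.56 CPM, and ADAMTS5, an aggrecanase that TIMP3 inhibits, at 0.199 ± 0.023 and 0.114 ± 0.029 CPM. Another aggrecanase, ADAMTS4, fell from 6.16 ± 1.36 to 2.24 ± 0.052 CPM (log2 fold change -1.46, adjusted p = 0.00012). MMP9, the gelatinase restrained by RECK, was at 0.230 ± 0.079 CPM with Dox and 0.550 ± 0.050 CPM without it (log2 fold change -1.24, adjusted p = 0.0031), and MMP24 and ADAMTS1 were the other genes called lower. MMP14, the membrane protease bound by TIMP2, fell by 0.41 on the log2 scale (adjusted p = 0.0014) without reaching the fold limit. MMP2 had a log2 fold change of 0.10 (adjusted p = 0.17).

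Of 9 listed binding partners of the inhibitors, all tested, 2 were called higher and 1 lower, beside the same shares of 5.58% and 6.45% over all genes, with a median of 0.31. LRP1, an endocytic receptor that clears TIMPs from the cell surface, was at 384 ± 40.7 CPM with Dox and 220 ± 9.64 CPM without it (log2 fold change 0.80, adjusted p = 8.9e-05, edgeR). The RECK ligands went apart: WNT7A was at 1.48 ± 0.29 and 0.547 ± 0.18 CPM (1.43, adjusted p = 0.0015) and WNT7B at 0.119 ± 0.028 and 0.238 ± 0.039 CPM (-1.02, adjusted p = 0.011). Without Dox, WNT7A was already called higher in shMCM7 than in parental cells, where it was at 0.141 CPM (1.96, adjusted p = 0.0039, edgeR). ADGRA2, the coreceptor of RECK in WNT7 signalling, rose by 0.56 on the log2 scale (adjusted p = 0.0024) and was not called. CD63, the surface partner of TIMP1, had a log2 fold change of -0.15 (adjusted p = 0.037).

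Of 18 other secreted protease inhibitors, 17 were tested, 3 were called higher and 1 lower (5.58% and 6.45% of all genes), while the median was -0.48. TFPI, the inhibitor of the tissue factor pathway of coagulation, was at 4.71 ± 0.38 CPM with Dox and 2.84 ± 0.67 CPM without it (SD, n = 3; log2 fold change 0.73, adjusted p = 0.0061, edgeR). SERPINA1 and SERPINI1 were also called higher, at 0.59 and 0.62. SPINT1, an inhibitor of cell surface serine proteases, was called lower, at 0.536 ± 0.051 CPM with Dox and 1.03 ± 0.12 CPM without it (log2 fold change -0.95). In parental A375 cells Dox led to no call in these 3 lists. The direct comparison of the Dox effects called 3 of 28 metalloproteinases, 3 of 9 binding partners and 4 of 17 other inhibitors. Over all 16334 tested genes the share called was 10.5%. LRP1 (0.60), MMP3 (1.65) and ADAMTS4 (-1.64) were among the listed genes called. Of the 7 metalloproteinases called after induction, 3 were also called here, and MMP9 (-0.55, adjusted p = 0.35), MMP24 (-0.75, 0.079), ADAMTS1 (-0.58, 0.053) and ADAMTS5 (0.57, 0.34) did not pass. MMP9 was at 0.260 ± 0.063 CPM with Dox and 0.416 ± 0.16 CPM without it in parental cells (SD, n = 3). SERPINA1 passed the adjusted p but not the fold limit, at 0.50.

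**Figure D4:**
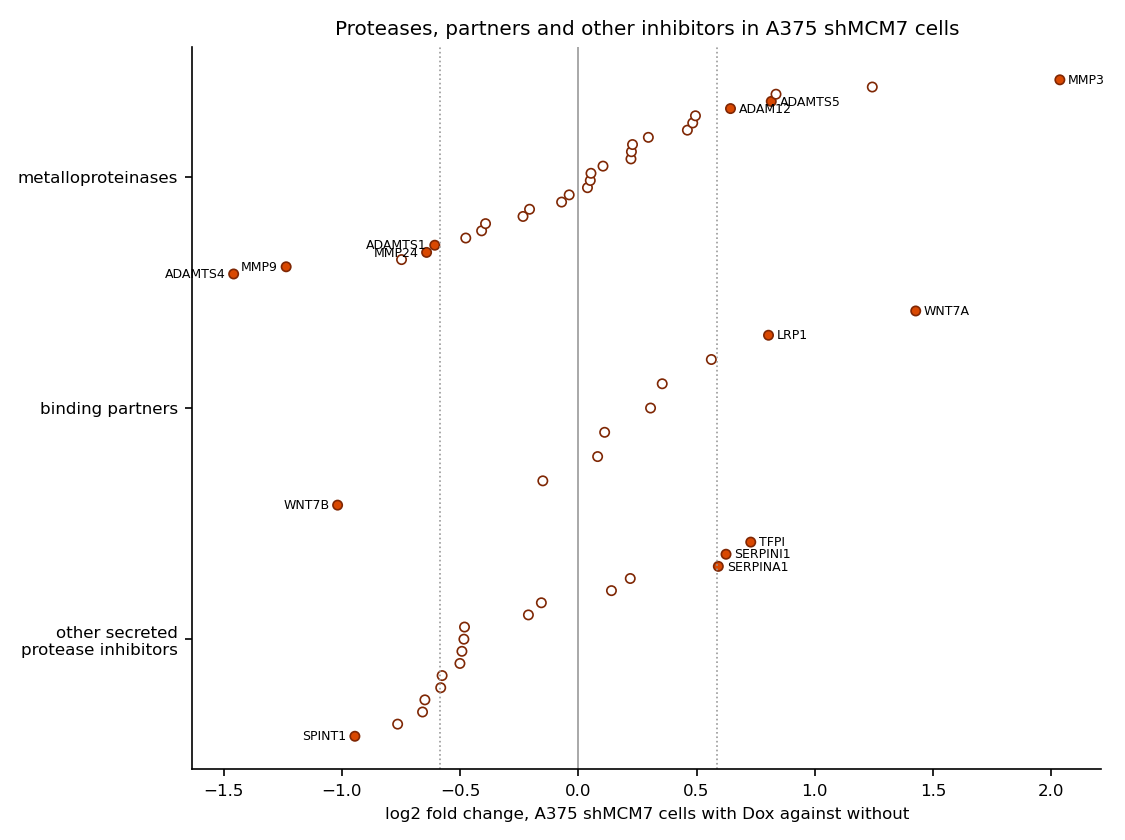
Log2 fold changes (x axis) of the tested genes of 3 lists in A375 shMCM7 cells with Dox against without, 1 point per gene ordered by value within each list; filled points are called and named, and dotted lines mark a 1.5-fold change. Metalloproteinases lie on both sides of 0 (3 called higher, 4 lower), and most of the other inhibitors lie below 0 although 3 of the 4 called are higher.

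The 3 endothelial markers PECAM1, CDH5 and VWF, summed, were at 6.72 to 7.65 CPM in A375 shMCM7 Dox and 1.94 to 2.21 CPM in shMCM7 noDox libraries, with 1 of the 3 called. That gene was CDH5 (6.202 ± 0.58 and 0.862 ± 0.22 CPM), while PECAM1 and VWF had log2 fold changes of -0.21 and -0.10 that did not pass. The 3 blood cell markers summed to at most 0.209 CPM in any A375 library, and 5 fibroblast markers to 33.3 to 42.2 CPM with Dox and 28.2 to 32.8 CPM without it, with 1 called higher (PDGFRB) and 1 lower (LUM). Summed epithelial markers were at 348 to 462 and 334 to 392 CPM, with EPCAM called higher and KRT19 lower, both under 1 CPM. Summed melanoma markers were at 581 to 675 and 658 to 684 CPM, with PMEL called lower, and alveolar markers at 0.503 to 0.638 and 0.709 to 1.18 CPM, with AQP5 called lower. Their part in the values of the TIMPs and RECK was not tested.

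Across the 12 A375 libraries, the genes whose log2(CPM + 1) followed each member most closely among 13160 genes are given as a description, since the libraries share their groups and their depth. TIMP2 was followed most closely by RILPL2 (Pearson's r 0.995), FBXO10 (0.994) and DNASE1L1 (0.991). FBXO10, for instance, had mean levels of 23.4 CPM in shMCM7 Dox and 11.4 to 12.6 CPM in the other A375 groups. RECK was followed by ARSJ (0.987), AGPAT4 (0.979) and NT5E (0.978), the ecto-nucleotidase CD73, which was at 94.1 CPM in shMCM7 Dox and 51.4 to 60.7 CPM elsewhere. TIMP1 was followed by NHEJ1 (0.987), NELFCD (0.978) and AC068946.1 (0.975). The values were lower for TIMP3, with PCOLCE2, an enhancer of procollagen processing, at 0.832, LSG1 at 0.83 and PIM2 at 0.813.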

How the data were processed

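RNA from A375 and A549 cells was isolated with the RNeasy Mini Kit and sequenced on Illumina instruments. The submitters' processing notes name bcl2fastq 2.19, Trimmomatic, STAR 2.7.1, featureCounts, edgeR and the build GRCh38.p10, while the strand setting and the annotation used for counting are not given in the sources used here. The authors deposited raw read counts per gene for each library, with no normalization. Gene names and positions were taken from GENCODE release 29 (21349 of 21386 identifiers matched).

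Counts were tested with edgeR 4.0.16 in R 4.3.3 (TMM, filterByExpr with a minimum count of 10, glmQLFit, glmQLFTest, prior count 0.125), fitted over all genes of the groups compared, with Benjamini-Hochberg adjustment. Tables and plots were made in Python 3.11.15, and the fits were tested on simulated data. Each comparison used the 6 libraries of 2 groups, except the 12 of the interaction and of the line comparison. The members, gene lists and tests were chosen with earlier results of these data known, and the genes named are the members, the list genes called in A375 shMCM7 cells, overlapping genes and the 3 most similar genes. 1 gene of the list of other inhibitors is not reported here and was left out of its counts. Other genes named beside them (MMP14, MMP2, ADGRA2 and CD63) were chosen after their values were seen.

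As a pairing check, libraries were centred on their group mean and those with the same number were correlated. The correlation was over 0.1 in every pair for A375 shMCM7 Dox and noDox (0.213 to 0.344) and for A375 shMCM7 and parental noDox (0.531 to 0.548). It ranged from -0.142 to 0.528 for A375 parental Dox and noDox and from -0.35 to 0.487 for A375 shMCM7 and parental Dox. In A549 it ranged from -0.735 to 0.22 in shMCM7 and from -0.107 to 0.007 in parental cells. Pairing by number was therefore not established. Alternatives were DESeq2 1.42.0, its size factors, no filter, a fit over the whole line, the replicate block and leaving out each library. No 2 replicates were identical (chi-square per degree of freedom 1.98 to 112 over 24 pairs). P-values measure the spread between libraries of the same label, and the main fits did not pair replicates. In A549, every group by label except parental Dox mixes libraries with little MCM7 and libraries with more.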

Additional observations from a re-analysis of the deposited data

Results flagged for a closer look

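In A375 cells, the effect of Dox differed between shMCM7 and parental cells for 3 of the 4 members tested, at an adjusted p under 0.05 in the interaction test of edgeR, which 30% of all genes passed. Of the 3, only TIMP2 was also past the fold limit of a call. The difference of the log2 fold changes was 0.69 for TIMP2, from 0.80 in shMCM7 cells with all 3 Dox libraries above all noDox libraries, and 0.10 in parental cells with overlapping groups. For RECK it was 0.44, from 0.43 and -0.02, and for TIMP1 it was -0.49, from -0.43 and 0.05. Groups of 3 libraries were too small for the search for a single distant sample.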

How the results depend on the processing

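Of 435 alternative log2 fold changes, 409 kept their direction and their side of the call and 26 reversed, none of them of a called value. With no filter on low counts, TIMP3 in A375 shMCM7 against parental cells with Dox was 0.0089. Leaving out 1 library in turn moved the following uncalled values across 0. In parental A375 cells TIMP1 ranged from -0.030 to 0.15 and RECK from -0.10 to 0.050. TIMP3 ranged from -0.026 to 0.10 in the difference of Dox effects, from -0.10 to 0.018 between noDox groups and from -0.038 to 0.021 between Dox groups. In A549 shMCM7 cells the ranges were -0.062 to 0.078 for TIMP1, -0.30 to 0.45 for TIMP2, -0.054 to 0.15 for TIMP4 and -0.54 to 0.42 for RECK. In A549 parental cells they were -0.65 to 0.036 for TIMP2 and -0.17 to 0.064 for TIMP4, where the library labelled parental noDox replicate 2 decided the sign. The causes were not tested.

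In A375 shMCM7 cells no left-out library changed a call: TIMP2 stayed between 0.75 and 0.88, RECK between 0.38 and 0.50 and TIMP1 between -0.49 and -0.38. With the replicate block, TIMP2 was 0.80, RECK 0.43 and TIMP1 -0.43 there, and no call of a member changed in any comparison; the block moved the calls over all genes from 266 to 484 between A375 noDox groups and from 0 to 12 in parental A375 cells. Levels per length depend on the length chosen. With the longest transcript, TIMP1 was above TIMP3 in 5 of 12 A375 libraries and the share of TIMP3 was 44.0 to 49.9%. The order of TIMP1 and TIMP2 within each A549 library was the same with either length. A549 libraries were too shallow to place TIMP3 closely, at 8 to 47 counts, and TIMP4 in A375 had 2 to 11.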
